A study of Malus x robusta with 27 samples.

Results

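Flower opening in the weakly fragrant tree (WF) is described here from 6 of the 27 RNA sequencing libraries of the study, namely the 3 of the early flowering stage (ES) and the 3 of the small balloon stage (EB), which the study also calls early balloon. All libraries labelled as WF at those stages were taken. In the study's description, at ES the petals were opening and the anthers were still closed, and at EB the petals were closed. WF is a single weakly fragrant progeny tree of the crabapple Malus robusta (Mr), and its strongly fragrant counterpart is a single tree called SF. The replicates of a group are therefore individual flowers of that tree, and the p-values measure the spread between flowers of that tree. No treatment of the flowers is described. The study kept cut flowering branches in water in a growth chamber before its volatile measurements. Its text does not say whether the flowers for RNA came from these branches. SF and Mr at ES and EB, with 3 libraries in each group, serve below as comparisons.

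A balloon-stage apple flower opens mainly through the expansion of petal cells that have already been formed. Expansion draws on sugars and water taken up by the cell, on enzymes that loosen or rebuild the cell wall, and on hormones such as auxin, gibberellin and jasmonate. Around the same time the anthers finish the maturation of pollen, and the petals of fragrant species release volatiles made from fatty acids, from phenylalanine and from terpenoid precursors. The files name genes by their HF identifier of the apple HFTH1 genome and by the protein domains they encode, so each gene is given here by both, and newly assembled genes, which have no HF identifier, are given by their domain.

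The 6 WF libraries held 17966314 to 29558381 fragments on genes, and a gene with a coding length of 1 kb and 3 fragments has an FPKM of 0.095 to 0.1607, a floor that covers counting error only. WF_ES_3 was at least 2 log2 units above all 5 other libraries for 100 genes and WF_ES_2 as far below them for 29 genes, against 1 to 4 and 0 to 3 genes in the other libraries. The floral tissue could be checked only by domain, because the table names no marker genes. Of 126 MADS-box genes, the family that sets floral organ identity, 73 passed the filter on low values. The summed level of all 126 was 2513 to 2874 FPKM at ES and 2632 to 2880 FPKM at EB. RNA of whole flowers mixes petals, sepals, anthers and pistils, and fewer cells of a type cannot be told apart from less RNA per cell.

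In WF flowers, 489 differentially expressed genes (DEGs) were detected between ES and EB, which is 1.65% of the 29660 genes tested. A DEG is a gene with an adjusted p under 0.05 in limma. At ES, 153 DEGs were higher (0.516% of the genes tested) and 336 were lower (1.13%). Their median absolute log2 fold change was 1.36, and 367 of them changed by at least 1 on the log2 scale. All 489 had ES libraries entirely above or entirely below the EB libraries, as did 29.2% of all genes tested (14.8% above and 14.4% below). The calls rested on all 6 libraries. Left out in turn, WF_ES_1 gave 21 DEGs, WF_ES_2 0, WF_ES_3 128, WF_EB_1 0, WF_EB_2 3 and WF_EB_3 0, although 4655 to 7598 genes had an unadjusted p under 0.05 in these fits. The lowest adjusted p of any gene was 0.0227. A fit that shared its estimate of spread over all 9 groups detected 1309 higher (4.41% of genes tested) and 1545 lower (5.21%), so that 45.9% of its DEGs were higher, against 31.3% in the fit of the WF libraries.

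Among DEGs with a described domain, the deepest fall was in the terpene synthase HF25816. HF25816 (HFTH1 chromosome 7, 33009635 to 33012502) had 2.41, 2.07 and 5.16 FPKM at ES, against 74.4, 67.0 and 81.7 FPKM at EB. No ES library came near the lowest EB library, and the log2 fold change was -4.23 ± 0.28 (SE, adjusted p = 0.0227). The short chain dehydrogenase HF05865, of a large family of NAD(P)-dependent oxidoreductases, had 3.15, 5.62 and 5.88 FPKM at ES and 113.6, 81.0 and 61.8 FPKM at EB (log2 fold change -3.87). The polyphenol oxidase HF12097, of the enzymes that oxidise phenols and brown cut fruit, had 48.3, 52.0 and 80.1 FPKM at ES and 1003, 582.3 and 615.1 FPKM at EB (-3.58). Its mean at the late flowering stage (LS) was 4.06 FPKM. Glutathione S-transferase HF11222, of the enzymes that join glutathione to small molecules, had 4.47, 1.19 and 7.27 FPKM at ES and 58.0, 58.3 and 42.6 FPKM at EB (-3.53). The cytochrome P450 gene HF40721, of the haem monooxygenases, was listed at 0, 0.0296 and 0 FPKM at ES and had 18.4, 6.38 and 9.51 FPKM at EB. In these 5 genes every ES library lay below every EB library, which the rule for the largest falls required.

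A pair of UDP-glycosyltransferases, which attach sugars to small molecules, also fell. HF35809 had 7.99, 7.71 and 19.6 FPKM at ES, against 158.1, 89.3 and 94.3 FPKM at EB (log2 fold change -3.24). HF30751 had 9.998, 7.42 and 16.3 FPKM at ES, against 141.9, 87.5 and 77.2 FPKM at EB (-3.09). Of the 97 members tested, these were the only DEGs that were lower (2.06%, against 1.13% of all genes), and HF26758 was the only one that was higher (1.03%, against 0.516%).

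Without a described domain, 108 DEGs remain, and some of them changed more than any described gene. The following were chosen after their values were seen. HF33563 had 2.32, 1.85 and 2.11 FPKM at ES and 247.1, 81.6 and 111.3 FPKM at EB, a log2 fold change of -5.42 ± 0.40. HF38454 had 6.50, 12.3 and 4.99 FPKM at ES and 437.2, 177.6 and 302.0 FPKM at EB (-5.09 ± 0.43). HF05908 was abundant before opening, with 86.2, 147.4 and 77.3 FPKM at ES and 2990, 1781 and 2170 FPKM at EB (-4.49 ± 0.33). HF29533 had 19.9, 88.4 and 35.0 FPKM at ES and 1733, 759.7 and 1366 FPKM at EB (-4.90 ± 0.59). In Mr these genes averaged 3.55, 8.44, 68.5 and 40.7 FPKM at ES, against 885.4, 973.8, 3233 and 4245 FPKM at EB.

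**Figure D1:**
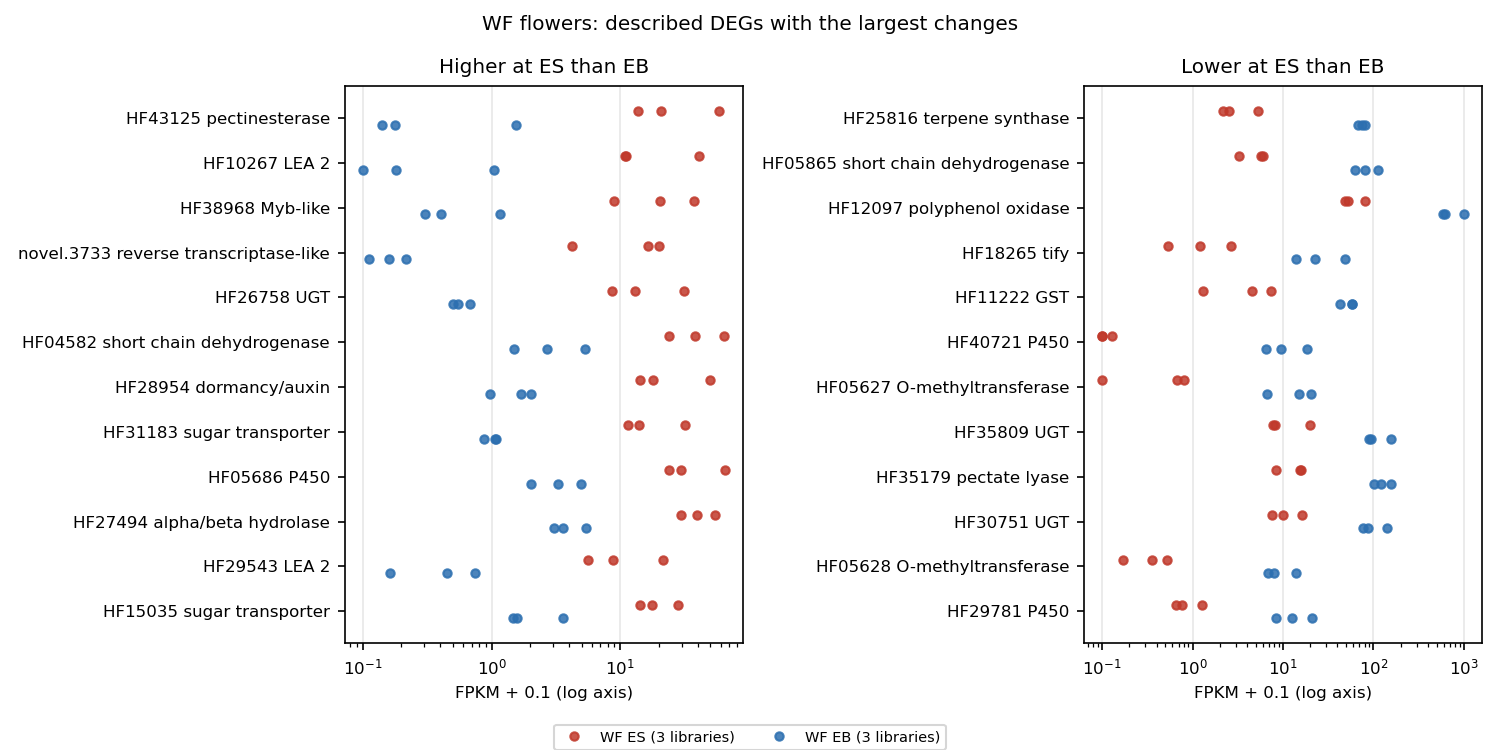
FPKM of the 12 described DEGs with the largest rises (left panel) and the 12 with the largest falls (right panel) at ES, on a log axis after adding 0.1, with red points for the 3 WF ES libraries and blue points for the 3 WF EB libraries. The 24 genes were chosen among DEGs whose stages do not overlap. The ES points of the left panel are spread more widely than those of the right panel for genes such as HF43125 (58.2, 13.5 and 20.5 FPKM).

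Among DEGs with a described domain, the largest rise was in the pectinesterase HF43125. HF43125 (chromosome 13, 12861687 to 12862793), of the enzymes that remove methyl groups from pectin, had 58.2, 13.5 and 20.5 FPKM at ES, against 0.0421, 1.46 and 0.0770 FPKM at EB (log2 fold change 4.24 ± 0.61, adjusted p = 0.0432). The Myb-like gene HF38968 encodes a transcription factor domain and had 37.0, 20.4 and 8.87 FPKM at ES, against 0.303, 0.206 and 1.06 FPKM at EB (3.76 ± 0.52, adjusted p = 0.0425). The late embryogenesis abundant (LEA) genes HF10267 and HF29543 belong to a family known from drying seeds. HF10267 had 40.6, 10.8 and 10.9 FPKM at ES and was listed at 0, 0.949 and 0.0798 FPKM at EB. HF29543 had 21.5, 5.47 and 8.64 FPKM at ES and 0.0637, 0.649 and 0.349 FPKM at EB. Both had all ES libraries above all EB libraries, as the choice of the largest rises required, with log2 fold changes of 3.81 and 3.07.

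Sugar transporter genes and a UDP-glycosyltransferase also stood among the 12 largest rises. The sugar transporter gene HF31183 had 31.8, 11.3 and 13.8 FPKM at ES and 0.770, 0.961 and 0.985 FPKM at EB (log2 fold change 3.26). HF15035, a short gene model of the same transporter family, had 27.9, 17.6 and 14.1 FPKM at ES and 1.37, 3.46 and 1.48 FPKM at EB (2.76). UDP-glycosyltransferase HF26758 had 31.3, 8.48 and 12.9 FPKM at ES and 0.401, 0.454 and 0.580 FPKM at EB (3.46). In each of these genes the lowest ES library lay above the highest EB library, which the rule for the largest rises required.

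The rest of the 12 largest rises were in genes of different families. The short chain dehydrogenase HF04582 had 63.7, 23.7 and 38.2 FPKM at ES and 1.40, 2.62 and 5.21 FPKM at EB (log2 fold change 3.39). The dormancy/auxin associated gene HF28954, of a family known for transcripts that accumulate in dormant buds, had 49.3, 17.8 and 14 FPKM at ES and 0.871, 1.60 and 1.93 FPKM at EB (3.32). The cytochrome P450 gene HF05686 had 64.2, 29.5 and 23.9 FPKM at ES and 1.94, 3.16 and 4.82 FPKM at EB (3.15). The alpha/beta hydrolase HF27494 had 54.6, 29.5 and 39.0 FPKM at ES, 3.48, 2.97 and 5.27 FPKM at EB (3.08) and a mean of 137.7 FPKM at LS. A newly assembled gene with a reverse transcriptase-like domain, of the kind found in mobile elements, had 16.4, 19.9 and 4.11 FPKM at ES and 0.0129, 0.0614 and 0.118 FPKM at EB (3.53). Library WF_ES_1 was the highest of the 6 for 11 of these 12 genes. It was also the highest for 105 of all 153 DEGs that were higher at ES, against 22 for WF_ES_2 and 26 for WF_ES_3. Such a DEG has its highest library at ES by selection, so a share over all 6 libraries is no like comparison. Over all genes tested, WF_ES_1 was the highest for 7589, WF_ES_2 for 4769 and WF_ES_3 for 4018. The part of WF_ES_1 in the rises was not tested.

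Among hormone genes, the jasmonate pathway held the largest share of falls. Proteins with a tify domain include the JAZ repressors, which in Arabidopsis block jasmonate responses and are destroyed when the hormone is perceived, and whose own genes are switched on by the hormone. Of 27 tify genes tested, 7 were lower at ES (25.9%, against 1.13% of all genes) and none was higher. The median log2 fold change of the 27 was -0.66, against 0.02 over all genes. The summed level of the family was 1220, 1187 and 1291 FPKM at ES, against 3030, 2327 and 3032 FPKM at EB. The fit over all 9 groups called 12 of them lower, while fits with a library left out called at most 1.

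HF00511 (chromosome 9, 14888637 to 14889354) was the most abundant of the 7, with 124.6, 139.0 and 189.3 FPKM at ES, against 614.3, 457.2 and 749.5 FPKM at EB (log2 fold change -1.99 ± 0.25, adjusted p = 0.0356). HF19051 had 98.2, 87.3 and 162.1 FPKM at ES, against 372.8, 369.0 and 553.6 FPKM at EB (-1.92). For both, the highest ES library lay far below the lowest EB library. HF42844 had 17.0, 25.3 and 36.3 FPKM at ES and 203.1, 119.9 and 203.5 FPKM at EB (-2.72). HF26242 had 12.2, 15.2 and 19.96 FPKM at ES and 160.0, 68.0 and 119.8 FPKM at EB (-2.74). The deepest fall was in HF18265, which had 0.431, 1.10 and 2.54 FPKM at ES and 48.0, 14 and 22.4 FPKM at EB (-3.55 ± 0.53, adjusted p = 0.0455). HF33949 had 0.368, 0.244 and 1.04 FPKM at ES and 6.87, 6.68 and 5.45 FPKM at EB (-2.27). HF07932, with 39.9, 34.2 and 34.7 FPKM at ES and 110.8, 85.9 and 107.9 FPKM at EB, changed least (-1.45). HF00511, HF19051 and HF07932 lie outside the rule for named genes and are given so that every DEG of the family is shown.

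The 20 tify genes that were not called were not uniformly lower, and their log2 differences ran from -1.85, in HF17062, to 0.27. HF19121 had 371.9, 361.4 and 300.3 FPKM at ES and 631.8, 517.4 and 537.1 FPKM at EB, with an adjusted p of 0.0995. HF01780 is annotated with further unrelated domains and had 136.0, 125.4 and 124.6 FPKM at ES and 110.7, 98.0 and 121.0 FPKM at EB, with a log2 difference of 0.23 and an adjusted p of 0.287. These 3 were singled out after their values were seen.

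SAUR genes are small, rapidly auxin-induced genes, several of which promote cell expansion in Arabidopsis. Of 47 tested, 3 were higher (6.38%, against 0.516% of all genes), none was lower, and the median log2 fold change was 0.47. HF10355 (chromosome 5, 23563128 to 23563412) had 102.2, 85.5 and 88.9 FPKM at ES, against 22.3, 25.9 and 25.9 FPKM at EB (log2 fold change 1.86 ± 0.11, adjusted p = 0.0227). HF02629 had 35.7, 50.02 and 33.8 FPKM at ES, against 4.57, 11.5 and 6.41 FPKM at EB (2.33 ± 0.33). HF02632, its near neighbour on chromosome 10, had 3.68, 2.20 and 2.68 FPKM at ES and was listed at 0 in all 3 EB libraries, so no fold is given. The summed SAUR level was 1051, 882.7 and 991.4 FPKM at ES and 617.2, 685.7 and 609.2 FPKM at EB, without overlap. The count of higher SAUR genes was 0 without WF_EB_1, WF_EB_2, WF_EB_3 or WF_ES_2 in turn, 2 without WF_ES_1 and 4 without WF_ES_3. The fit over all 9 groups called 12 higher and 2 lower. HF00533 had the largest difference of the family, with 18.8, 20.5 and 111.9 FPKM at ES and 1.43, 0.616 and 0.947 FPKM at EB, but its libraries differed more and its adjusted p was 0.0535.

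The GH3 gene HF10212, of a family that conjugates auxin or jasmonate to amino acids, had 221.5, 260.8 and 211.0 FPKM at ES and 103.8, 103.0 and 76.7 FPKM at EB (log2 fold change 1.29), and was the only DEG among 12. The AUX/IAA gene HF34873, of the repressors of auxin signalling, had 67.8, 76.9 and 68.7 FPKM at ES and 143.1, 137.1 and 135.9 FPKM at EB (-0.96), and was the only DEG among 38. Genes of the gibberellin-regulated GASA type, which encode small cysteine-rich peptides, had the lowest median of all 52 lists, -1.07. Of 19 tested, 2 were lower (10.5%, against 1.13% of all genes) and none was higher. A newly assembled GASA gene had 8.81, 13.8 and 10.3 FPKM at ES and 93.0, 76.5 and 87.9 FPKM at EB (-2.87 ± 0.17, adjusted p = 0.0227). HF07395 had 0.273, 0.679 and 0.827 FPKM at ES and 7.34, 12.5 and 5.52 FPKM at EB (-2.52). Both were lower in every ES flower, but the summed level of the family, 2418, 1608 and 1630 FPKM at ES and 2140, 2820 and 2464 FPKM at EB, overlapped.

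**Figure D2:**
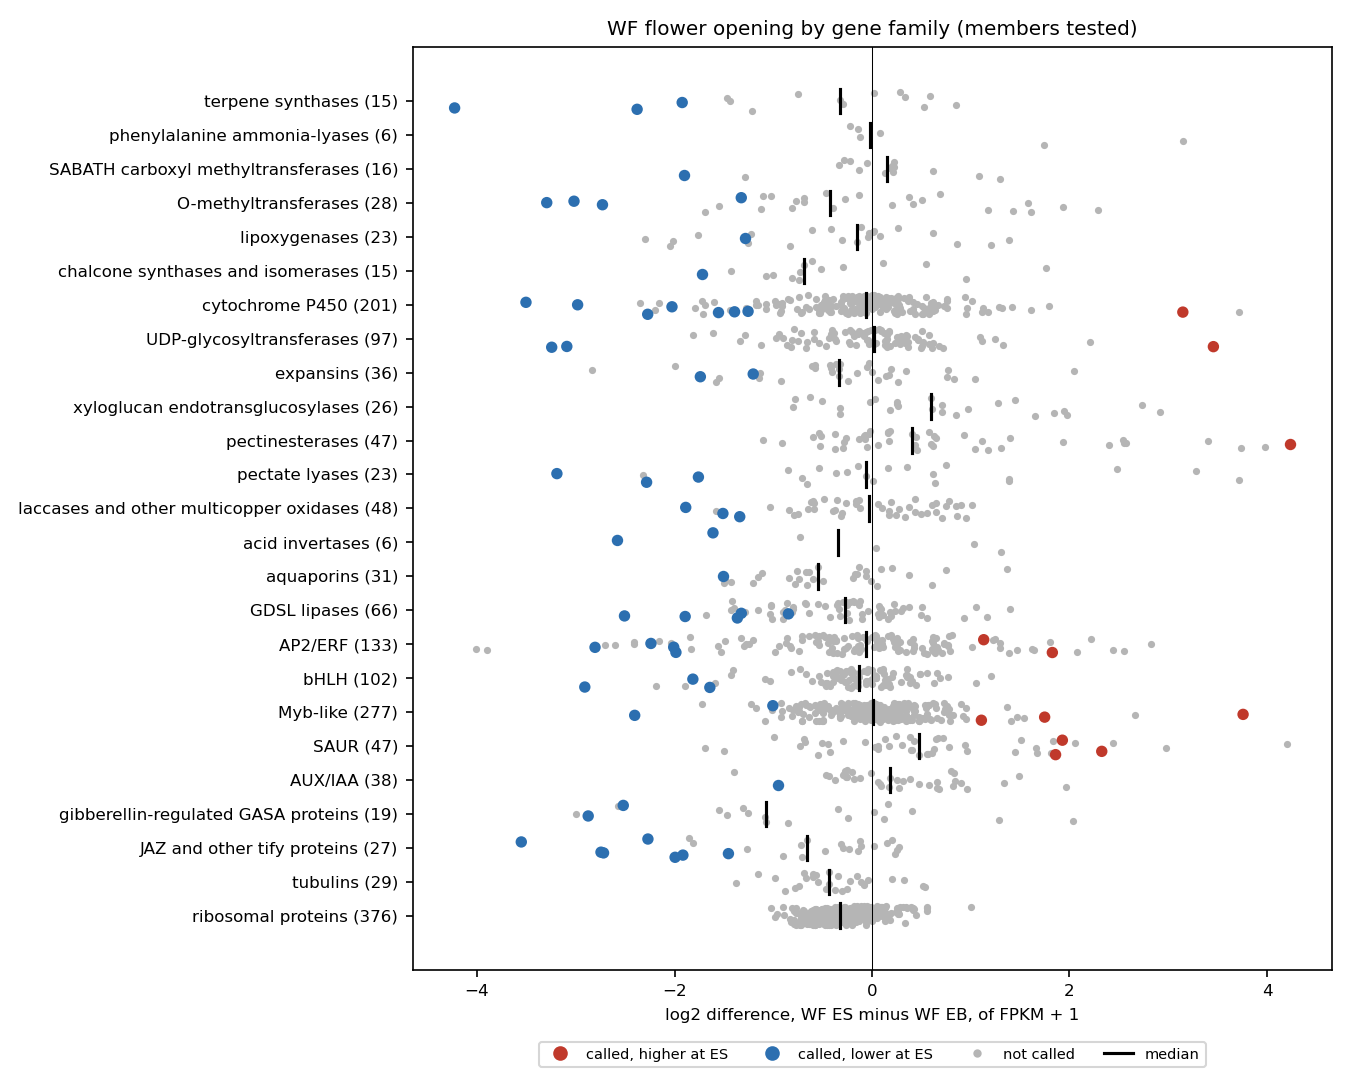
Log2 difference between ES and EB in WF flowers, on FPKM + 1, for each tested gene (points) of 25 domain families (rows, with the number tested), with called genes in red (higher at ES) and blue (lower at ES) and the family median as a black bar. Tify genes have 7 blue points and no red point, SAUR genes have 3 red points, and the GASA family has the lowest median (-1.07).

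Terpene synthases form monoterpenes such as linalool and sesquiterpenes from prenyl diphosphates. Of 50 genes with these domains 15 were tested, and 3 were lower at ES (20%, against 1.13% of all genes) and none was higher. The summed level was 162.9, 135.2 and 111.9 FPKM at ES, against 361.9, 343.6 and 426.3 FPKM at EB. Besides HF25816 above, HF12196 (chromosome 5, 45862080 to 45864442) had 5.24, 4.48 and 5.45 FPKM at ES, against 49.2, 20.5 and 27.8 FPKM at EB (log2 fold change -2.38 ± 0.32, adjusted p = 0.0393). HF17848 (chromosome 10, 40771185 to 40782102) had 0.231, 0.390 and 0.539 FPKM at ES, against 6.78, 2.66 and 4.03 FPKM at EB (-1.92 ± 0.29, adjusted p = 0.0455). At LS these genes averaged 1.34 (HF25816), 5.18 (HF12196) and 0.140 FPKM (HF17848). Values of neighbouring copies such as HF17844, HF17847, HF17848 and HF17851 on chromosome 10 are uncertain, because it is not known how fragments shared by similar copies were counted.

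O-methyltransferases of this domain methylate phenolic compounds, lignin precursors among them. Of 28 tested, 4 were lower at ES (14.3%, against 1.13%) and none was higher, and the 4 lie side by side on chromosome 1 between 20926200 and 20958582. In order along the chromosome, HF05629 had 0.769, 0.294 and 0.717 FPKM at ES and 2.50, 2.84 and 3.59 FPKM at EB (log2 fold change -1.32). A newly assembled member had 1.2, 2.78 and 1.55 FPKM at ES and 15.01, 15.8 and 21.6 FPKM at EB (-2.73). HF05628 had 0.0712, 0.425 and 0.259 FPKM at ES and 7.81, 6.73 and 14 FPKM at EB (-3.02). HF05627, a short gene model, was listed at 0, 0.709 and 0.576 FPKM at ES and had 6.52, 14.8 and 20.4 FPKM at EB (-3.29). As neighbouring copies they may share fragments, and they are not 4 independent observations. The summed level of the family, with these 4 included, overlapped, at 390.1, 445.8 and 287.3 FPKM at ES and 312.6, 345.3 and 451.5 FPKM at EB. The median log2 difference of the 28 was -0.43. At an unadjusted p under 0.05, 11 were lower (11.2% of all genes) and 6 were higher (10.6% of all genes). With a pseudocount of 0.1, 2 of the 28 were called.

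The study listed 43 genes for the steps that form its volatiles, of which 42 were tested. The terpene synthases HF12196 and HF17848 were the only 2 DEGs (4.76% lower, against 1.13% of all genes). HF12195 did not pass the filter, with 0.579, 0.0461 and 0.253 FPKM at ES and 0.684, 0.166 and 0.223 FPKM at EB. Among the genes of the plastid pathway that supplies terpenoid precursors, HF44085, which carries the domain of its last reductase, had 175.5, 158.8 and 160.0 FPKM at ES and 147.3, 152.1 and 165.2 FPKM at EB. HF22253, a 1-deoxyxylulose-5-phosphate synthase that starts the pathway, had 99.1, 128.3 and 101.6 FPKM at ES and 119.8, 109.3 and 105.2 FPKM at EB. Their log2 differences were 0.09 and -0.03, with adjusted p of 0.635 and 0.917.

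For methyl benzoate, limma called none of the 3 listed genes, whose median log2 difference was 0.08. At an unadjusted p under 0.05, 1 was higher and 1 was lower. HF24990, a phenylalanine ammonia-lyase (PAL), which turns phenylalanine into cinnamate, had 491.3, 360.6 and 119.6 FPKM at ES and 55.8, 98.9 and 99.3 FPKM at EB. The ES libraries lay above the EB libraries, WF_ES_3 only barely, and the log2 difference was 1.75 ± 0.56 (adjusted p = 0.164). A further PAL gene outside these 3, HF05496, had 282.7, 189.7 and 68.3 FPKM at ES and 9.14, 24.5 and 19.9 FPKM at EB (3.15 ± 0.61, adjusted p = 0.0688), and WF_ES_3 was again the lowest ES library. Limma called none of the 6 PAL genes (2 at an unadjusted p under 0.05, against 21.8% of all genes). Voom called 1 higher and the fit over all 9 groups called 2 higher. HF44215, listed by the study as a benzoic acid carboxyl methyltransferase, which makes the ester, had 93.1, 186.9 and 151.1 FPKM at ES and 472.6, 292.2 and 277.9 FPKM at EB (-1.28 ± 0.33, adjusted p = 0.114). HF44218, a neighbour of the same SABATH family that lies outside the list of 43, was the only DEG of the 16 tested, with 4.63, 2.42 and 4.76 FPKM at ES and 18.6, 15.5 and 17.1 FPKM at EB (-1.91). The SABATH gene HF13510, also outside the 3 and singled out after its values were seen, went the other way without a call. It had 2642, 2036 and 1349 FPKM at ES and 700.9, 673.4 and 1041 FPKM at EB (1.29, adjusted p = 0.139). The summed SABATH level was 2788, 2270 and 1603 FPKM at ES and 1228, 1020 and 1384 FPKM at EB.

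For the leaf acetates, lipoxygenases open the fatty acid chain and alcohol dehydrogenases and acyltransferases complete the esters. Limma called none of these 17 genes, although 9 had an unadjusted p under 0.05, against 21.8% of all genes. HF29363, a cytochrome P450 gene, had 52.0, 98.2 and 70.7 FPKM at ES and 140.4, 111.6 and 104.5 FPKM at EB (log2 difference -0.72, adjusted p = 0.184). Lipoxygenase HF12045, which is not among the 17, was the only DEG of 23 lipoxygenases, with 3.91, 4.98 and 5.62 FPKM at ES and 12.9, 12.9 and 13.5 FPKM at EB (-1.28). For methyl anthranilate limma called none of 5 genes, with 1 at an unadjusted p under 0.05, against 21.8% of all genes. Its shikimate kinase HF41090 had 70.9, 65.0 and 62.6 FPKM at ES and 85.6, 106.2 and 127.3 FPKM at EB (-0.66, adjusted p = 0.102). HF27126, the EPSP synthase of the same pathway, had 64.2, 54.6 and 53.2 FPKM at ES and 59.6, 48.6 and 47.8 FPKM at EB (0.14, adjusted p = 0.556).

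**Figure D3:**
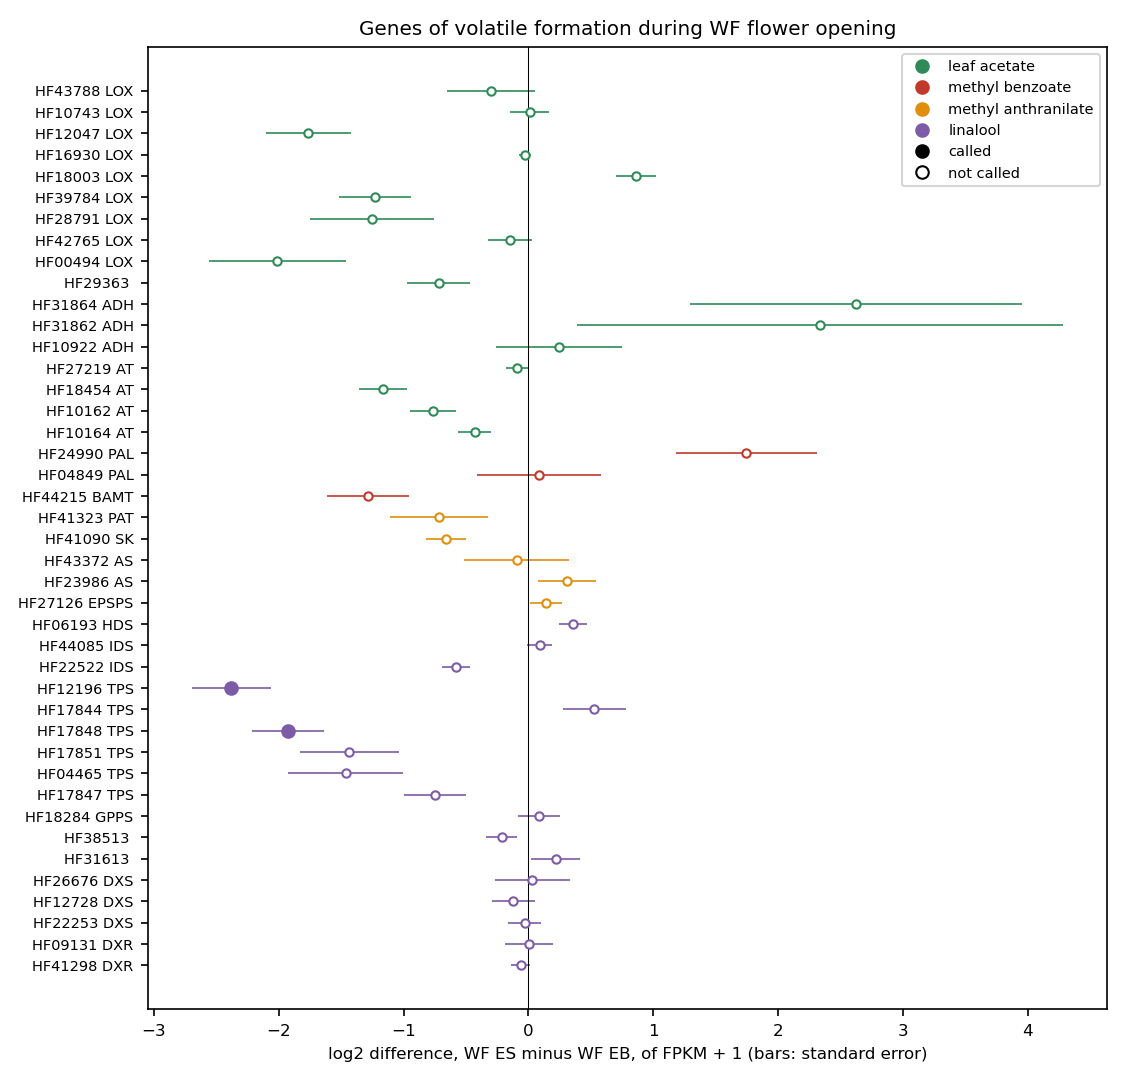
Log2 difference between ES and EB in WF flowers, on FPKM + 1, with its standard error, for the 42 tested genes that the study listed for volatile formation, coloured by volatile, with filled points for DEGs. The filled points are the terpene synthases HF12196 (-2.38) and HF17848 (-1.92), and the widest bars belong to the alcohol dehydrogenases HF31864 and HF31862.

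Among cell wall families, pectate lyases, which cut pectin, had 3 of 23 tested genes lower (13.0%, against 1.13% of all genes) and none higher. HF10919 had 77.3, 45.1 and 38.9 FPKM at ES and 281.7, 229.1 and 254.4 FPKM at EB (log2 fold change -2.28). HF29888 had 78.9, 47.8 and 55.1 FPKM at ES and 211.0, 181.7 and 217.2 FPKM at EB (-1.76). HF35179 had 15.9, 8.35 and 15.5 FPKM at ES and 157.5, 120.0 and 102.6 FPKM at EB (-3.19). All 3 averaged 1.66 to 3.85 FPKM at LS. The polygalacturonase HF08603, which also cuts pectin, had 32.6, 32.9 and 36.3 FPKM at ES and 65.1, 59.5 and 56.9 FPKM at EB (-0.82), the only DEG of 44.

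Expansins loosen the wall without cutting it, and 2 of 36 were lower (5.56%, against 1.13% of all genes). HF23864 had 32.6, 22.7 and 28.04 FPKM at ES and 95.6, 95.6 and 91.1 FPKM at EB (log2 fold change -1.74), and HF25488 fell by 1.20. Laccases and other multicopper oxidases, several of which polymerise lignin, had 3 of 48 lower (6.25%), namely HF33725 (-1.89), HF41871 (-1.51) and HF13648 (-1.34). The inhibitor-domain gene HF25667, of a family that blocks pectin methylesterases or invertases, had 181.6, 223.4 and 216.0 FPKM at ES and 705.8, 644.7 and 746.7 FPKM at EB (-1.75 ± 0.15), the only DEG of 28. The cellulose synthase HF26141 had 32.9, 34.8 and 33.2 FPKM at ES and 21.8, 17.6 and 17.4 FPKM at EB (0.81), the only DEG of 30.

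Xyloglucan endotransglucosylases, which cut and rejoin the chains that tie cellulose together, had no DEG among 26 in limma. Of them 13 had an unadjusted p under 0.05, against 21.8% of all genes, and the median log2 difference was 0.60. Voom, fitted to fragments recovered from the FPKM values, called 4 of them higher. HF31530, the most abundant, had 4947, 2235 and 2409 FPKM at ES and 926.3, 1014 and 918.4 FPKM at EB (1.65 ± 0.43, adjusted p = 0.117). HF42907 had 4403, 2617 and 2295 FPKM at ES and 1239, 1759 and 2085 FPKM at EB (0.85 ± 0.48, adjusted p = 0.354). The summed level was 12880, 7194 and 7191 FPKM at ES and 3869, 4135 and 4338 FPKM at EB, and WF_ES_1 was the highest library for 15 of the 26. Of 47 pectinesterases HF43125 was the only DEG, and WF_ES_1 was the highest library for 21 of them. Voom called none of the 47, HF43125 included, and the fit over all 9 groups called 6 higher and 2 lower.

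Acid invertases split sucrose in the vacuole or the wall. Of 6 tested, 2 were lower (33.3%, against 1.13% of all genes) and none was higher. HF25654 (chromosome 7, 31528582 to 31532252) had 52.1, 27.1 and 40.7 FPKM at ES and 243.9, 194.5 and 275.0 FPKM at EB (log2 fold change -2.58 ± 0.26, adjusted p = 0.0318). HF23741 had 17.0, 12.9 and 11.7 FPKM at ES and 44.2, 38.5 and 49.7 FPKM at EB (-1.61 ± 0.17). The summed level of the family overlapped, with 1101, 722.2 and 691.4 FPKM at ES and 662.5, 600.4 and 834.7 FPKM at EB, and HF36409, singled out after its values were seen, had 444.4, 507.9 and 302.0 FPKM at ES and 123.8, 142.4 and 250.9 FPKM at EB (1.31, adjusted p = 0.111).

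Among 89 sugar transporters of the major facilitator type, HF31183 and HF15035 were higher (2.25%, against 0.516% of all genes). HF10043 (-1.20) and HF12141 (-1.07) were lower (2.25%, against 1.13% of all genes). The SWEET gene HF03079, of the sugar efflux carriers, had 21.7, 23.4 and 22.6 FPKM at ES and 42.2, 44.1 and 62.0 FPKM at EB (log2 fold change -1.08), the only DEG of 21 (4.76%). Aquaporins, the water channels, had a median of -0.55 over 31 genes. HF29379 was their only DEG, with 23.0, 12.4 and 20.5 FPKM at ES and 59.2, 46.7 and 54.4 FPKM at EB (-1.51, adjusted p = 0.0497). Voom called 8 of the 31 lower, the filter on the fitted libraries 7 and the fit over all 9 groups 5. A pseudocount of 0.1 gave 0. The summed aquaporin level was 5092, 5533 and 4700 FPKM at ES, below the 7772, 7923 and 7517 FPKM at EB, and 15 of 31 had an unadjusted p under 0.05 on the lower side, against 11.2% of all genes.

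Transcription factor families held DEGs in both directions. Of 102 bHLH genes, 3 were lower (2.94%, against 1.13% of all genes) and none was higher. HF07428 had 32.4, 47.1 and 43.9 FPKM at ES and 288.0, 275.3 and 381.8 FPKM at EB (log2 fold change -2.91 ± 0.20, adjusted p = 0.0227). HF42514 had 188.2, 105.3 and 137.6 FPKM at ES and 409.7, 390.9 and 526.1 FPKM at EB (-1.64). HF41568 fell by 1.81 on the log2 scale. Among 277 Myb-like genes the shares were near those of all genes, with 1.08% higher (0.516% of all genes) and 0.722% lower (1.13%). The 3 that were higher were HF38968 above, HF31310 (1.75) and HF36845 (1.11), and 2 were lower, of which HF21717 had 4.91, 6.09 and 6.47 FPKM at ES and 43.7, 29.6 and 32.9 FPKM at EB (-2.40).

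The AP2/ERF family, many of whose members respond to ethylene or to stress, had 4 of 133 lower (3.01%, against 1.13% of all genes) and 2 higher (1.504%, against 0.516%). HF26558 had 49.9, 36.3 and 52.9 FPKM at ES and 192.2, 181.4 and 179.4 FPKM at EB (log2 fold change -1.99 ± 0.16). HF32636 had 4.59, 1.42 and 3.76 FPKM at ES and 40.4, 17.7 and 27.4 FPKM at EB (-2.81), and HF05721 and HF30602 fell by 2.01 and by 2.24 on the log2 scale. Of the 2 that were higher, which the rule did not name, HF42877 had 56.3, 51.2 and 55.6 FPKM at ES and 12.4, 13.1 and 19.2 FPKM at EB (1.83 ± 0.17). HF37827 had 2.74, 1.96 and 2.30 FPKM at ES and 0.666, 0.477 and 0.406 FPKM at EB (1.13). The lowest log2 difference of the family, -4.02, was in a gene that was not called.

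The MADS-box gene HF26190 had 128.2, 100.2 and 137.0 FPKM at ES and 245.0, 220.0 and 248.8 FPKM at EB (log2 fold change -0.97), the only DEG of 73 (1.37%, against 1.13% of all genes). NAC genes, many of which act in ageing and in secondary walls, had HF21621 higher (1.60) and HF32117 lower (-1.14) among 108. Each is 0.926% of the family, against 0.516% higher and 1.13% lower of all genes. The WRKY gene HF18219, of a family tied to defence and ageing, had 3.41, 2.41 and 2.34 FPKM at ES and 0.521, 0.354 and 0.736 FPKM at EB (1.27), and it averaged 86.9 FPKM at LS. TCP genes had no DEG among 28 in limma or in voom. In limma 6 had an unadjusted p under 0.05, as did 21.8% of all genes.

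Genes of the flower surface and of pollen held more called genes on the lower side than on the higher side. GDSL lipases, some of which build the cutin of the surface, had 5 of 66 lower (7.58%, against 1.13% of all genes) and none higher, among them HF33785 with 33.0, 28 and 16.5 FPKM at ES and 106.2, 83.4 and 96.4 FPKM at EB (log2 fold change -1.89) and HF09020 (-2.51). The fatty acid elongases HF25123 and HF25124, of the 3-ketoacyl-CoA synthases that lengthen wax precursors, fell by 1.34 and by 1.28, and they are neighbours on chromosome 7 with levels under 3 FPKM in all 6 libraries. Lipid transfer type proteins had HF00962 (83.6, 89.1 and 84.5 FPKM at ES, 411.7, 230.6 and 291.8 FPKM at EB, -1.81) and HF01430 (-0.93) lower and HF25538 higher (39.4, 29.2 and 41.6 FPKM at ES, 6.25, 5.08 and 9.24 FPKM at EB, 2.28) among 40, which is 5.0% lower and 2.5% higher. The family of the olive pollen protein Ole e 1 had 2 of 27 lower (7.41%), namely HF18010 (-1.98) and HF10393 (-1.67), and its summed level was 6779, 5654 and 5533 FPKM at ES and 9993, 9205 and 9522 FPKM at EB. Pollen and other organs were not sampled apart, and their part in these differences was not tested.

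A newly assembled chalcone isomerase gene, of the first steps of flavonoid synthesis, had 5.94, 6.37 and 10.99 FPKM at ES and 29.0, 21.9 and 31.5 FPKM at EB (log2 fold change -1.73), the only DEG among 15 chalcone synthases and isomerases, whose median was -0.69. The acyltransferases HF25863 and HF23530, of the BAHD family that acylates phenolics and alcohols, fell by 2.56 and by 1.96 among 66 (3.03% lower). Of the cytochrome P450 genes tested 7 were lower (3.48%, against 1.13% of all genes), and the higher HF05686 alone made 0.498%, against 0.516% of all genes. HF32232 had 16.8, 18.4 and 20.1 FPKM at ES and 92.2, 83.2 and 103.2 FPKM at EB (-2.27 ± 0.12), with little spread at either stage. HF29781 had 0.561, 0.660 and 1.17 FPKM at ES and 21.0, 8.38 and 12.4 FPKM at EB (-2.98). The 2-oxoglutarate oxygenases, which include enzymes of gibberellin and flavonoid metabolism, had 2 of 136 higher (1.47%, against 0.516% of all genes) and 3 lower (2.21%, against 1.13%). HF17792 had 9.58, 5.26 and 3.54 FPKM at ES and 0.136, 0.0615 and 0.124 FPKM at EB (2.60), HF12754 rose by 1.91, and HF11876 and HF19130 fell by 1.67 and by 1.20.

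Families of cell division and photosynthesis held few DEGs or none. Kinesins, the microtubule motors, had HF06317 (-0.83) and HF30852 (-0.72) lower among 90 (2.22%, against 1.13% of all genes). Of the 90, 58 had a negative difference, and their median was -0.22. Core histones had HF18626 higher (0.72) and a newly assembled gene lower (-0.66, with levels under 1 FPKM) among 48, which is 2.08% each, against 0.516% and 1.13% of all genes. Limma called none of 53 cyclins, 19 MCM helicases, 29 tubulins, 39 chlorophyll a/b binding proteins, 37 photosystem subunits, 5 Rubisco small subunits, 31 beta-amylases, 24 papain-type proteases, 4 S1/P1 nucleases, 37 small heat shock proteins or 44 Hsp70 and Hsp90 genes. In this order, 10, 1, 11, 1, 2, 0, 7, 6, 2, 4 and 11 of them had an unadjusted p under 0.05, as did 21.8% of all genes. Voom called 1 cyclin higher, 2 tubulins lower, 1 Hsp70 or Hsp90 gene higher and none of the others. The fit over all 9 groups called 0 to 5 genes in each of these families. Without a call in limma, 25 of the 29 tubulins had a negative difference, with a median of -0.435. At an unadjusted p under 0.05, 10 tubulins were lower (11.2% of all genes) and 1 was higher. Tubulin HF08104 came closest to a call among those named, with 316.2, 282.6 and 270.2 FPKM at ES and 569.0, 506.0 and 522.2 FPKM at EB (-0.88 ± 0.14, adjusted p = 0.0502). The chlorophyll a/b binding protein HF01786 had 3433, 2128 and 2595 FPKM at ES and 2743, 2555 and 2707 FPKM at EB, which overlapped.

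Ribosomal proteins had no DEG among 376 in limma, but 317 of them had a negative difference, against 14007 of the 29660 genes tested. Their median log2 difference was -0.32, against 0.02 over all genes. At an unadjusted p under 0.05, 141 were lower (11.2% of all genes) and 3 were higher (10.6% of all genes). HF26289, an S27 protein, had 346.9, 471.5 and 394.9 FPKM at ES and 548.1, 534.0 and 567.3 FPKM at EB (-0.45, adjusted p = 0.208). The median stayed between -0.43 and -0.24 with single libraries left out, and it was -0.32 with values scaled by total fragments. The voom fit called 2 of the 376 lower, and the fit over all 9 groups called 96 lower and 1 higher.

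A few smaller domain families stood out only after the values were seen. Dehydrins, a branch of the LEA proteins that accumulates under water deficit, had 2 of 7 higher (28.6%, against 0.516% of all genes), of which HF27666 had 215.4, 190.7 and 189.7 FPKM at ES and 22.3, 47.9 and 46.6 FPKM at EB (log2 fold change 2.40). The acid phosphatases HF00321 and HF00318, neighbours on chromosome 9, had 7.77, 9.01 and 7.01 FPKM and 17.8, 18.3 and 13.4 FPKM at ES, against 70.8, 59.7 and 42.2 FPKM and 129.4, 105.5 and 68.4 FPKM at EB (-2.69 and -2.51). Genes with a DnaJ domain, of co-chaperones, had 4 of 122 higher (3.28%, against 0.516% of all genes) and none lower, and bZIP transcription factor genes had 5 of 69 lower (7.25%, against 1.13%) and none higher.

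Comparison with SF and Mr asked whether the same genes moved when other trees opened their flowers. Between ES and EB the study, with DESeq2, reported DEGs in SF, more in WF and the most in Mr. In SF limma detected no DEG between these stages (5411 genes, 18.2%, had an unadjusted p under 0.05). The SF libraries were more spread at EB (root mean square SD 0.505 on the log2 scale) than those of WF at EB (0.309). The direction was nevertheless shared. Of the 153 DEGs higher at ES in WF, 146 had a positive difference in SF (95.4%, against 51.0% of all genes), with a median of 0.91 in SF and 1.44 in WF. Of the 336 that were lower, 330 had a negative difference in SF (98.2%, against 48.2% of all genes), with medians of -0.77 in SF and -1.33 in WF. Over all genes tested, 67.9% had the same sign in SF as in WF. No libraries are shared between these comparisons. Since the genes were selected by their WF values, the medians of WF and SF are not a comparison of sizes.

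For the difference in opening response between WF and SF, limma called 0 genes and voom 0, with 2184 genes (7.36%) at an unadjusted p under 0.05 in limma. Without the filter on low values 15 were called, in the fit over all 9 groups 23, and without WF_ES_3 5. For the terpene synthase HF12196, levels in SF averaged 26.8 FPKM at ES and 47.4 FPKM at EB, and the log2 differences were -2.38 in WF and -0.75 in SF, but the difference of the responses did not pass the test. The lack of calls does not show that the trees responded alike.

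In Mr more genes were called between the same stages, and its libraries were less spread (root mean square SD 0.308 at ES and 0.186 at EB). There were 12436 DEGs (41.9%) in Mr, 6876 higher (23.2%) and 5560 lower (18.7%) at ES. Of the 153 WF DEGs that were higher, 136 were also higher in Mr, which is 88.9% of the WF list and 1.98% of the Mr list. Of the 336 that were lower, 266 were also lower in Mr, which is 79.2% of the WF list and 4.78% of the Mr list, and 7 were higher there. The median log2 fold changes in Mr were 1.49 and -1.25.

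**Figure D4:**
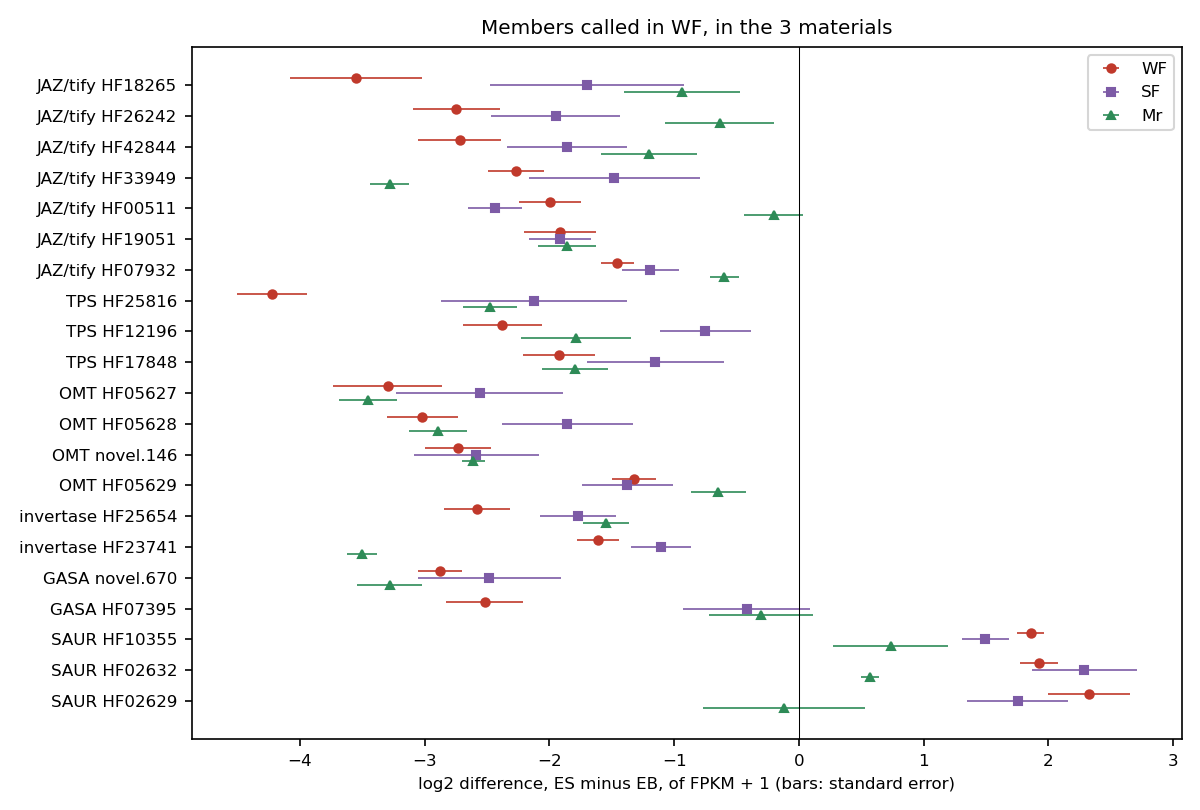
Log2 difference between ES and EB, on FPKM + 1, with its standard error, in WF (circles), SF (squares) and Mr (triangles) for the 21 DEGs of WF in the tify, terpene synthase (TPS), O-methyltransferase (OMT), invertase, GASA and SAUR families. The points of SF lie on the same side of 0 as those of WF for all 21 genes, while for the tify gene HF00511 Mr lies at -0.20, against -1.99 in WF.

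The response of WF differed from that of Mr for 1003 genes (3.38% of those tested), of which 245 (0.826%) were higher and 758 (2.56%) lower in WF relative to Mr. Scaled by total fragments the split was 442 and 585 (43.04% higher, against 24.4%), with the median of all genes shifted to 0.17. Single libraries moved the count by over 1.5 times, to 331 without Mr_EB_2, 342 without Mr_EB_1, 410 without Mr_EB_3, 455 without Mr_ES_2, 495 without WF_EB_3 and 652 without WF_EB_2. Of the 153 WF DEGs that were higher 19 (12.4%) were among the 1003, and of the 336 that were lower 66 (19.6%).

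Among the tify genes, HF00511 averaged 385.5 ± 107.5 FPKM at ES and 432.1 ± 44.98 FPKM at EB in Mr (SD, n = 3), a log2 difference of -0.20, and its response in WF was lower by 1.79 (adjusted p = 0.0270). HF07932 differed by -0.86 (adjusted p = 0.0327) and HF19121 by -1.05. The terpene synthase HF25816 fell in both, but by 1.75 more on the log2 scale in WF (adjusted p = 0.0327), since Mr averaged 4.15 FPKM at ES and 27 FPKM at EB. The invertase HF23741 fell less in WF than in Mr, where it averaged 5.38 FPKM at ES and 71.6 FPKM at EB (difference 1.89, adjusted p = 0.00259). The P450 gene HF32232 had a log2 difference of -2.27 in WF and of -0.30 in Mr, where it averaged 628.8 FPKM at ES and 757.3 FPKM at EB (difference -1.97, adjusted p = 0.00358).

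Library WF_ES_3 stood apart from the other WF libraries in a set of genes that was found after the values were seen. Of the 100 genes mentioned above, alcohol dehydrogenase HF31862 had 0, 0.269 and 147.4 FPKM at ES and 0.0816, 0.139 and 0.186 FPKM at EB. Its neighbour HF31864, which the study listed for leaf acetate formation, had 36.6, 11.3 and 511.9 FPKM at ES and 8.51, 11.2 and 7.74 FPKM at EB. HF29682, of a small subunit of mitochondrial complex I, had 7.79, 5.39 and 301.7 FPKM at ES and 1.79, 4.73 and 5.23 FPKM at EB. The universal stress protein gene HF28459 had 0.536, 1.96 and 52.6 FPKM at ES and 0.471, 0.576 and 0.172 FPKM at EB. Limma called none of these 4, and the other 2 flowers at ES did not share the level. Its part in the comparison was not tested, and the count of DEGs without it is given above.

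**Figure D5:**
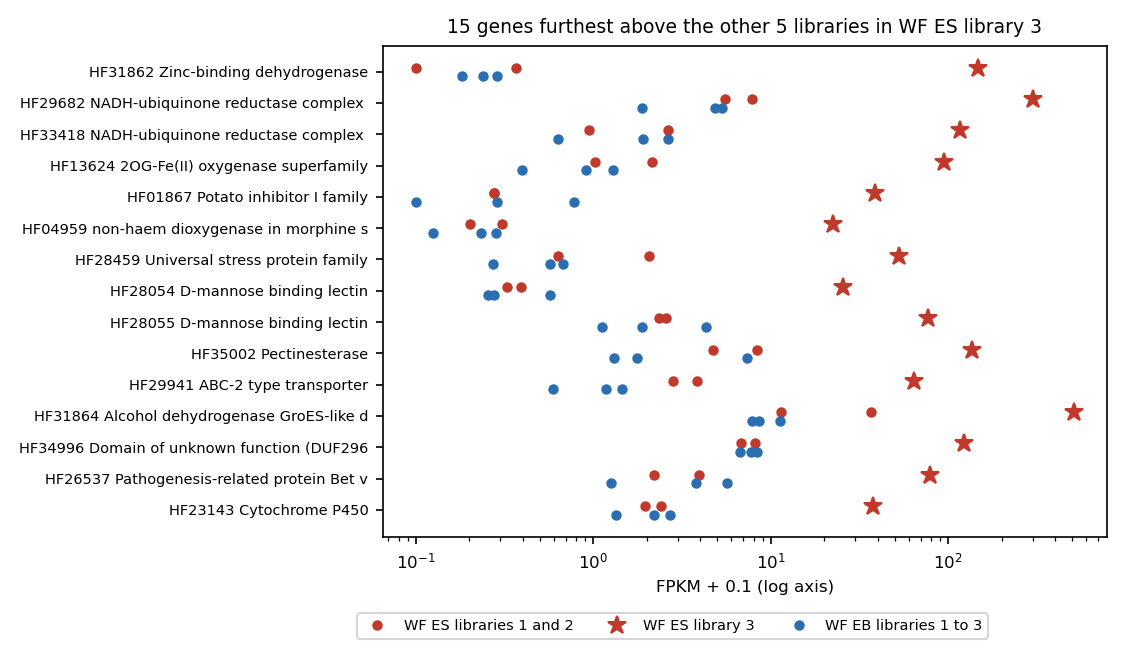
FPKM, on a log axis after adding 0.1, of the 15 genes in which WF_ES_3 (stars) lay furthest above the other 5 WF libraries, with red circles for WF_ES_1 and WF_ES_2 and blue circles for the 3 EB libraries. HF31862 lay at 147.4 FPKM in WF_ES_3 and at most at 0.269 FPKM elsewhere.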

How the data were processed

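The authors sequenced RNA of single flowers in 27 libraries (Illumina, paired reads of 150 bp) and deposited FPKM values per gene, that is fragments per kilobase of gene, scaled for library size, against the apple HFTH1 v1.0 genome. The authors' processing notes name StringTie 1.3.3b and DESeq2 1.16.1, with no aligner or counter given in any source used here. Of 48445 genes, 44677 have HF identifiers, 98.1% of which have a length divisible by 3 (coding length). Values under 1000 fragments were whole fragments within 0.05 in 100% of 169657 cases, which gave the depth of each library. The FPKM denominators were 0.9614 to 1.1034 times the fragments in the 6 WF libraries, so the values carry a scaling beyond depth.

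Limma 3.58.1 (R 4.3.3) with an intensity trend was fitted to log2(FPKM + 1) for 29660 genes with at least 1 FPKM in at least 3 of 27 libraries, on the groups compared alone, with Benjamini-Hochberg adjustment. All adjusted p-values are from it, and fold changes on this scale understate changes of low genes. The fitting code was tested on simulated data. Summed levels of a family cover all its members, tested or not. Interaction contrasts compared WF with SF and with Mr. The study's own pairwise test needs counts and was replaced by limma. Between ES and EB the study reported more DEGs than limma in WF and in SF, and fewer in Mr. Named genes were the 12 largest rises and the 12 largest falls among described DEGs whose ES and EB libraries did not overlap. Added to these were up to 4 DEGs of each of 52 domain lists (or 2 abundant members of a list without DEGs). DEGs and abundant members of the 43 volatile genes, and the 5 extreme genes of each interaction in each direction, were also named. Members, lists and rules were chosen with earlier results of these data known. Alternatives were another pseudocount, other filters, total-fragment scaling, all 9 groups in a fit, the replicate number as a block, no trend, voom on recovered fragments and each library left out.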

Additional observations from a re-analysis of the deposited data

Results flagged for a closer look

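The response to opening differed between WF and Mr by the interaction test for 1003 genes, which is why the following are listed, and each value is the log2 difference in WF minus that in Mr on FPKM + 1. Among genes named above, it was -1.97 for the P450 gene HF32232, -1.73 for the P450 gene HF29781, -1.75 for the terpene synthase HF25816, 1.89 for the invertase HF23741, -1.76 for the alpha/beta hydrolase HF27494, -3.14 for the Myb-like gene HF21717, -3.47 for the AP2 gene HF30602, 1.36 for the SAUR gene HF02632, 3.44 for the SAUR gene HF00533 and 0.72 for a newly assembled histone gene. HF36772, with a Rubisco-related domain, had -0.78 and the beta-amylase HF19497 had -1.24. The GDSL lipases HF11966 and HF10951 had 1.17 and 4.19.

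The lowest differences were in genes that in Mr were low at EB and high in 2 of the 3 flowers at ES. The AP2 gene HF22606 differed by -8.55, with 0.964, 107.6 and 166.6 FPKM at ES and 0.186, 0.167 and 0.634 FPKM at EB in Mr. HF30831, a further AP2 gene, differed by -8.38, with 0.853, 97.6 and 163.8 FPKM at ES in Mr. For both genes the difference is larger than the rise in Mr, because they were lower at ES than at EB in WF. The values were -6.2 for the AN1-type zinc finger gene HF33176, -5.74 for the AP2 gene HF23607 and -5.54 for HF02688, and Mr flower 1 was the lowest at ES for each. The part of that library in these values was not tested. The highest differences were 4.49 for HF06104, 4.19 for HF10951 above, 3.55 for HF33545, 3.44 for HF00533 above and 3.41 for HF23410. Of these, HF06104, HF10951, HF33545 and HF23410 were lower at ES than at EB in Mr by 3.22, 4.11, 2.76 and 3.60 on the log2 scale.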

How the results depend on the processing

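Between ES and EB in WF, 489 DEGs became 1071 with the filter on the 6 fitted libraries, 2854 in the fit of all 9 groups, 0 with the replicate number as a block (5547 genes at an unadjusted p under 0.05) and 0 to 128 with a library left out. A fold change of at least 1 on the log2 scale, a pseudocount of 0.1, no filter, total-fragment scaling, no trend and voom gave 367, 530, 660, 616, 463 and 701. Of the 489, 413 were also called in the fit of all 9 groups, 463 of 474 tested with the fitted-library filter, 433 in voom, 64 without WF_ES_3 and 13 without WF_ES_1. The difference between WF and SF gave 15 genes without a filter, 23 in the fit of all 9 groups and 0 to 5 with a library left out, against 0. The difference between WF and Mr gave 531 in the fit of all 9 groups, 621 with the block, 533 in voom and 331 to 1491 with a library left out, against 1003. The cause of these changes was not tested. The same-numbered flowers of WF deviated with correlations of -0.186, 0.153 and 0.08, and those of unlike number with -0.282 to 0.225. With 3 flowers at each stage, these values cannot decide whether the numbers pair the flowers. Of the 140 genes named by the rule, 93 were DEGs. None of these 93 changed direction under these alternatives. That outcome was largely fixed in advance, because the ES and EB libraries of every DEG did not overlap. It is no evidence that the calls are stable. Changes of sign in named genes without a call were not counted. All 93 lost the call with the block, 72 to 93 with a library left out, and 1 to 10 under the others. The fold-change requirement is left out of these counts. At 17966314 to 29558381 fragments, genes under about 0.1607 FPKM at a length of 1 kb rest on 3 fragments or fewer.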
